A study of Mus musculus with 10 samples.

Results

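The genes described here carry iron into the intestinal epithelial cell, store it there and pass it on to the blood. They were chosen by name as 7 genes, Cybrd1, Slc11a2, Tfrc, Fth1, Ftl1, Slc40a1 and Heph, and 6 of them have a row among the 13932 genes of the deposited count table. Cybrd1, which encodes the brush border ferrireductase, has no row, so its expression was not analysed here. All 6 listed genes passed the filter on low counts and were tested among 12477 genes. The RNA came from live cells of the mouse ileum, sorted for EpCAM, a surface protein of epithelium, and against CD45, which marks leukocytes. All 10 mice carried H2-Ab1 fl/fl, a floxed allele of the gene for an MHC class II subunit. In 5 of them, called dIEC, the label adds Villin:Cre+, a Cre recombinase under the promoter of villin, which is active throughout the intestinal epithelium. The other 5, called WT, are labelled Villin:Cre-, so loss of H2-Ab1 and the presence of Cre cannot be told apart. The series text gives Cre- for both genotypes, and the sample labels were followed. Each genotype held 3 males and 2 females, no further treatment or age is given in the labels, and each library came from 1 mouse.

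Dietary iron reaches the enterocyte, the absorptive cell of the villus, as ferrous iron through the importer DMT1, encoded by Slc11a2. Inside the cell it is held in ferritin, a hollow shell built of heavy chains (Fth1), which oxidise iron, and light chains (Ftl1), which help to form the mineral core. Ferroportin (Slc40a1) exports iron across the basolateral membrane, where the copper enzyme hephaestin (Heph) oxidises it for loading onto transferrin. The transferrin receptor (Tfrc) works in the other direction, taking transferrin-bound iron from the blood into dividing cells of the crypt and many other cells. Most dietary iron is absorbed in the duodenum, upstream of the ileum studied here.

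Several of these transcripts carry an iron-responsive element, a hairpin that the iron regulatory proteins bind when iron in the cell is low. In the 5′ untranslated region the bound protein blocks translation, as for ferritin, and in the 3′ untranslated region it protects the RNA from decay, as for Tfrc. RNA counts can reflect the second kind of control directly but do not measure translation. The hairpins are shown because they separate these genes by the way iron acts on them. GENCODE M21 coding transcripts (GRCm38, the assembly also called mm10) were searched on the transcript strand for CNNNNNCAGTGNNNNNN, with the 5 bases on either side of the loop required to pair, G-T pairs allowed. Of the 7 genes, 4 held a match, and of 21901 coding genes 1.34% held one anywhere in a coding transcript and 0.731% in an untranslated region. Each sequence below is 27 bases, 5′ to 3′, with the loop of 6 bases in capitals.
Fth1, 5′ untranslated region, chr19:9982733-9982759, + strand: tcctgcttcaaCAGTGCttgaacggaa
Ftl1, 5′ untranslated region, chr7:45459780-45459806, - strand: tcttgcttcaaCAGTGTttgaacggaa
Slc40a1, 5′ untranslated region, chr1:45925466-45925492, - strand: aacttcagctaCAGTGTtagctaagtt
Tfrc, 3′ untranslated region, chr16:32631220-32631246, + strand: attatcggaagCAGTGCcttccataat
Tfrc, 3′ untranslated region, chr16:32631599-32631625, + strand: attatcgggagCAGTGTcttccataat
Tfrc, 3′ untranslated region, chr16:32631664-32631690, + strand: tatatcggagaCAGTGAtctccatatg
Tfrc, 3′ untranslated region, chr16:32631711-32631737, + strand: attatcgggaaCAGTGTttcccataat
Ferritin heavy and light chain and ferroportin held 1 match each, in the leader, and Tfrc held 4 in its tail. These letters were not found in Slc11a2, Heph or Cybrd1 transcripts, which says nothing about hairpins of another form. A hairpin with an unpaired base among the 5 would be missed, so these genes cannot be taken to lack such an element.

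On the GRCm38 assembly, Slc11a2 (ENSMUSG00000023030) spans chromosome 15, 100387898 to 100425072, and Tfrc (ENSMUSG00000022797) chromosome 16, 32608920 to 32632794. Fth1 (ENSMUSG00000024661) spans chromosome 19, 9980598 to 9985098, and Ftl1 (ENSMUSG00000050708) chromosome 7, 45457944 to 45459884. Slc40a1 (ENSMUSG00000025993) spans chromosome 1, 45908068 to 45926523, and Heph (ENSMUSG00000031209) chromosome X, 96455359 to 96574485. Some of their counts are uncertain, since the use of strand in counting is not given in the sources used here. Gm5475 overlaps Slc11a2 on the opposite strand, the pseudogene Gm14935 lies within Heph, the small RNA gene Gm22133 lies within Ftl1, and all of these have rows of their own. Genes named as copies of both ferritin genes, such as Fth-ps2, Fth-ps3, Ftl1-ps1 and Ftl2-ps, are annotated in the genome and have no row in the table. How alike their sequences are was not measured. Reads that fit both a ferritin gene and such a copy could therefore have been lost or reassigned.

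Levels were compared between genes as CPM (counts scaled to a common library total, with totals adjusted by TMM) per kilobase of annotated exon, over all 10 libraries. Fth1 had the highest level of the 6, at 176 ± 37.2 CPM per kb (SD, n = 10), followed by Ftl1 at 112 ± 20.99 and Heph at 81.3 ± 16.99 CPM per kb. Tfrc stood at 33.8 ± 17.2 and Slc11a2 at 11.8 ± 1.176 CPM per kb. Slc40a1 was lowest at 1.74 ± 1.25 CPM per kb, above 23.8% of the tested genes, while Fth1 lay above 98.1% of them and Heph above 95.5%. Ferritin and hephaestin transcripts were thus among the more abundant in these cells, and those of the exporter were sparse. Neighbours in this order overlapped for the 3 highest genes. The library ranges were 126 to 251 for Fth1, 80.1 to 153 for Ftl1 and 56.8 to 111 CPM per kb for Heph. Tfrc (11.001 to 63.8) reached into the range of Heph above it and of Slc11a2 below it (10.1 to 13.7), and Slc40a1 (0.715 to 5.02) lay below every other member. With the length of the longest coding transcript instead, the order was the same and the values were higher, 409 CPM per kb for Fth1 and 4.66 for Slc40a1.

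The libraries held 9174101 to 13484363 counts each, and edgeR's quasi-likelihood test called 2 genes between the genotypes. The targeted gene followed the labels, with H2-Ab1 at 62.9 to 368 CPM in the 5 WT and 0.767 to 3.11 CPM in the 5 dIEC libraries. The cells carried an epithelial identity, with Epcam at 1476 to 2561 CPM and all 20 of 20 mature enterocyte markers listed. For the segment of gut the markers were mixed. All 8 ileal enterocyte markers had a row and summed to 2186 to 3595 CPM, with the ileal bile acid binder Fabp6 at 394 to 1477 CPM. Of 9 markers of proximal small intestine 8 had a row, at 2209 to 10510 CPM in sum. Of 14 leukocyte markers 3 had a row (0.750 to 2.82 CPM in sum), and of 14 macrophage markers 4 had one (15.5 to 21.6 CPM in WT, 16.5 to 22.8 CPM in dIEC). Of 12 erythroid markers 5 had a row, at 0 to 24.1 CPM in WT and 13.8 to 28.4 CPM in dIEC, with all 5 at a count of 0 in WT 8. The libraries differed widely in proliferation genes, with overlapping ranges in the genotypes. The summed level of 26 proliferation genes ran from 374 to 1311 CPM in WT and from 289 to 1788 CPM in dIEC.

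The first comparison asked whether iron handling transcripts differed between dIEC and WT epithelium. None of the 6 members passed at an adjusted p under 0.05, against 0.016% of all tested genes called. None reached an unadjusted p under 0.05 in this fit either, against 2.85% of all genes. The genotypes overlapped in every member, and the share of all genes that overlap was not counted, so this says little about these genes. The fitted log2 fold change was below 0 for 5 of 6 members, with a median of -0.19, against a median of 0.013 over all tested genes. In simulated counts of this design, 2.82% of 1.5-fold changes and 35.9% of 2-fold changes were recovered, so changes of these sizes could be missed. In bulk samples, fewer cells of a type and less RNA per cell cannot be told apart.

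The brush border importer was the steadiest of the 6. Slc11a2 was at 77.4, 75.4, 66.3, 75.2 and 87.3 CPM in WT 2, 4, 6, 8 and 10. It was at 70.4, 79.5, 64.1, 84.4 and 70.5 CPM in dIEC 1, 3, 5, 7 and 9. The 2 sets of values covered nearly the same range, and the highest library stood only 1.36-fold above the lowest. The log2 fold change was -0.048 (SE 0.11, edgeR adjusted p = 0.9999).

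The transferrin receptor varied far more within each genotype than between them. Tfrc was at 264, 129, 175, 394 and 139 CPM in WT 2, 4, 6, 8 and 10. It was at 199, 192, 149, 68.0 and 379 CPM in dIEC 1, 3, 5, 7 and 9. The lowest and the second-highest libraries were both dIEC females, and the highest was a WT female, a 5.79-fold span in all. Its means were 220 ± 111 CPM in WT and 197 ± 114 CPM in dIEC (SD, n = 5 each), with a log2 fold change of -0.14 (SE 0.43, edgeR adjusted p = 0.9999).

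The 2 ferritin chains had lower means in dIEC, a difference that did not pass. Fth1 was at 644, 642, 558, 735 and 871 CPM in WT 2, 4, 6, 8 and 10. In dIEC 1, 3, 5, 7 and 9 it was at 437, 522, 672, 556 and 480 CPM. Of the dIEC libraries, 4 lay below every WT library, and dIEC 5 lay within the WT range. The means were 690 ± 119 CPM in WT and 533 ± 89.4 CPM in dIEC (SD, n = 5 each). The log2 fold change was -0.36 (SE 0.17), with an unadjusted p = 0.0628 and an edgeR adjusted p = 0.9999. It ranked 473rd by p among the tested genes.

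Ftl1, the light chain, ran alongside the heavy chain. It was at 146, 156, 145, 166 and 204 CPM in WT 2, 4, 6, 8 and 10, and at 107, 138, 169, 160 and 113 CPM in dIEC 1, 3, 5, 7 and 9. The dIEC libraries 1, 3 and 9 lay below every WT library, and dIEC 5 and 7 lay within the WT range. The log2 fold change was -0.24 (SE 0.16, edgeR adjusted p = 0.9999). Both chains were highest in WT 10, and their count ratio, Fth1 over Ftl1, stayed between 3.47 in dIEC 7 and 4.44 in WT 8. Marker levels also differed between the libraries. The summed markers of proximal small intestine ran from 3932 to 10510 CPM in WT, highest in WT 10. In dIEC they ran from 2209 to 9200 CPM, highest in dIEC 7, where Fth1 was at 556 CPM. All 7 tested markers of this list had a fitted log2 fold change below 0 in dIEC (median -0.44), against 5913 of all 12477 tested genes, and none was called. Their part in the ferritin values was not tested. The erythroid markers, of a cell type rich in iron, were at 0 to 0.179 CPM in WT 8 and WT 10, the WT females, which had the most Fth1. In the next libraries by Fth1, dIEC 5, WT 2 and WT 4, they were at 14.6, 24.1 and 13.2 CPM. They were at 13.8 and 21.2 CPM in dIEC 3 and dIEC 1, where Fth1 was lower. In dIEC 7, dIEC 9 and WT 6 they were at 28.4, 22.8 and 17.4 CPM, with Fth1 at 556, 480 and 558 CPM. The part of the erythroid markers was not tested.

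The exporter gene was the most uneven of the 6. Slc40a1 was at 13.6, 8.42, 45.2, 11.7 and 8.34 CPM in WT 2, 4, 6, 8 and 10. It was at 16.2, 14.6, 11.3, 6.44 and 21.1 CPM in dIEC 1, 3, 5, 7 and 9. WT 6, with 578 counts, stood above every other library, and dIEC 9, with 344 counts, was next. The log2 fold change was -0.23 (SE 0.49, edgeR adjusted p = 0.9999), and it was 0.40 (SE 0.33) without WT 6 and -0.67 (SE 0.43) without dIEC 9. With limma voom and sample weights it was -0.87 (SE 0.42, adjusted p = 0.277). The macrophage markers are of a cell type that also exports iron through ferroportin. They summed to 21.6 CPM in WT 6 and to 15.5 to 21.3 CPM in the other WT libraries. In dIEC 1, 3, 5, 7 and 9 they summed to 21.8, 17.99, 16.5, 19.999 and 22.8 CPM. WT 6, dIEC 9 and dIEC 1, the highest in Slc40a1, thus also had the highest macrophage sums. The order did not hold throughout. WT 8 was at 21.3 CPM with Slc40a1 at 11.7 CPM, and dIEC 7, lowest in Slc40a1, lay above dIEC 3 and dIEC 5. The part of the macrophage markers was not tested.

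Hephaestin, the oxidase that works beside the exporter, did not share that pattern. Heph was at 481, 740, 481, 651 and 696 CPM in WT 2, 4, 6, 8 and 10. It was at 665, 566, 666, 847 and 435 CPM in dIEC 1, 3, 5, 7 and 9. The highest and the lowest libraries were the 2 dIEC females, so the dIEC range enclosed all WT values. The log2 fold change was 0.066 (SE 0.21, edgeR adjusted p = 0.9999).

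**Figure D1:**
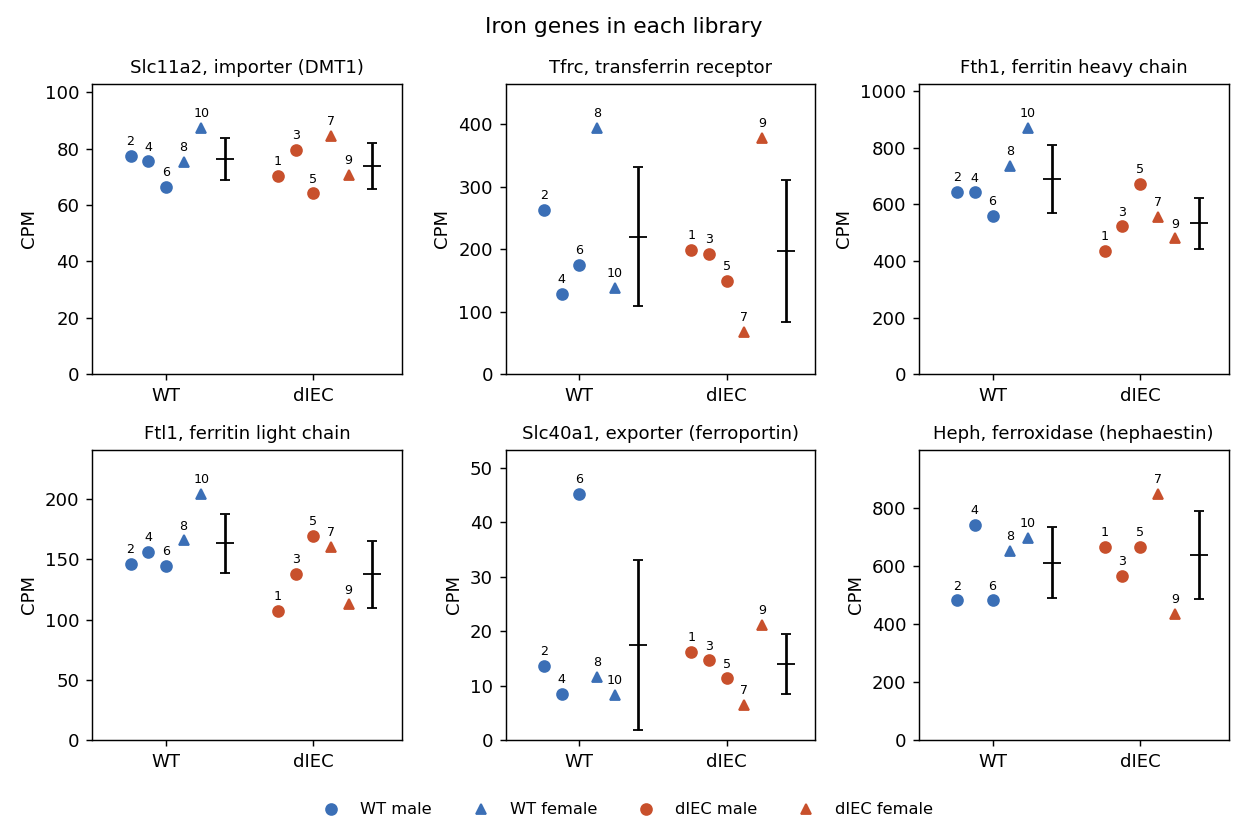
CPM (linear axis from 0) of the 6 listed iron genes in each of 10 libraries, with replicate numbers above the points, circles for males and triangles for females, and the mean ± SD of each genotype as a bar (n = 5). The genotypes overlap in every panel, Slc40a1 stands at 45.2 CPM in WT 6, and Tfrc ranges from 68.0 to 394 CPM.

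Within the sexes the same genes showed different fold changes, none of them called. For Fth1 the log2 fold change was -0.18 (SE 0.18) in males and -0.63 (SE 0.45) in females, and for Ftl1 -0.11 (SE 0.16) and -0.44 (SE 0.40). The mean of Fth1 was 803 CPM in female WT and 518 CPM in female dIEC mice. In males it was 615 CPM for WT and 544 CPM for dIEC. For Slc40a1 the values were -0.70 (SE 0.55) in males, the sex that holds WT 6, and 0.47 (SE 0.65) in females. The test of whether the genotype difference depended on sex called none of the 6, against 0.00801% of all tested genes, and none had an unadjusted p under 0.05, against 2.1%. Its estimates were -0.46 (SE 0.34) for Fth1, -0.33 (SE 0.34) for Ftl1 and 1.16 (SE 0.97) for Slc40a1 on the log2 scale, each with an edgeR adjusted p = 0.999997. For Slc40a1 the estimate was 0.13 without WT 6 and 0.046 without dIEC 9, and over fits that left out 1 library it ran from -0.61 to -0.10 for Ftl1 and from -0.59 to -0.28 for Fth1. In simulated data this test recovered 8.82% of 4-fold differences, so it had little power here.

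**Figure D2:**
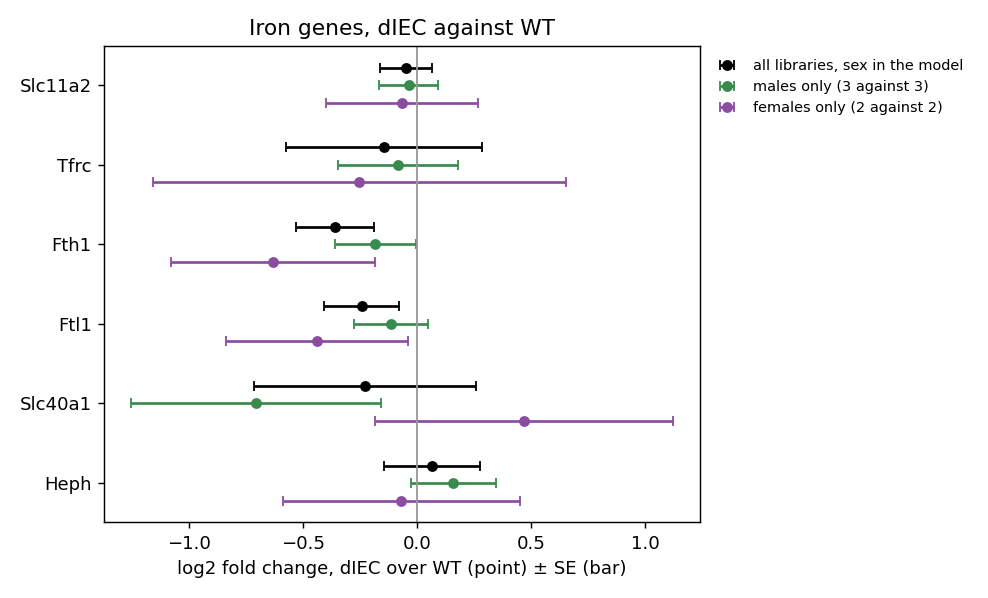
Log2 fold change of dIEC over WT (points) with its standard error (bars) for the 6 listed iron genes, from all 10 libraries with sex in the model, from males only (3 against 3) and from females only (2 against 2). Fth1 and Ftl1 lie below 0 in all 3 fits, Slc40a1 lies at -0.70 in males and 0.47 in females, and none of these values was called.

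Between the sexes, 0 of 6 members passed, against 0.0401% of all tested genes (0.0321% lower in females). None of the 6 reached an unadjusted p under 0.05 in edgeR, against 4.44% of all tested genes. DESeq2 called 13 of 12477 genes and none of the 6. Slc40a1 averaged 11.9 ± 6.51 CPM (SD) over 4 females and 18.2 ± 13.5 CPM over 6 males, with a log2 difference of -0.57 (SE 0.50), or -0.073 without WT 6 and -1.16 without dIEC 9 (unadjusted p = 0.0342, edgeR adjusted p = 0.38). Tfrc averaged 245 ± 166 CPM over the females and 185 ± 46.7 CPM over the males, with a log2 difference of 0.40 (SE 0.43). The 4 females held both the lowest and the 2 highest Tfrc libraries. For the other members the difference lay between 0.14 and 0.16 on the log2 scale, each about as large as its SE or smaller, apart from Slc11a2 at 0.14 (SE 0.11).

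The members were also fitted against the level of proliferation genes. The proliferation score is the mean log2 CPM of the 26 proliferation genes, none of which is a member, and it ran from 2.88 in dIEC 7 to 5.49 in dIEC 9. A slope gives the change in log2 CPM for each unit of the score, with sex and genotype in the model. Over all tested genes 54.3% were called, 26.3% rising with the score and 28% falling, and 59.3% had an unadjusted p under 0.05. Of the 6 members 4 were called, 2 rising and 2 falling, so a call as such is common here and the count says little about these genes.

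Tfrc rose with the score, with a slope of 0.84 (SE 0.14, edgeR adjusted p = 0.000834), or 1.79-fold for each unit. From the least to the most proliferative library it went from 68.0 CPM in dIEC 7 to 379 CPM in dIEC 9. WT 8 was off this line, with the highest Tfrc of all (394 CPM) at a middle score of 4.45. The call held in all 19 alternative fits, and over the fits that used this score the slope ran from 0.64 to 0.94.

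Slc40a1 also rose with the score, with a slope of 0.80 (SE 0.22, edgeR adjusted p = 0.014). It went from 6.44 CPM in dIEC 7 and 8.34 CPM in WT 10, the 2 lowest scores, to 21.1 CPM in dIEC 9, the highest. WT 6 and WT 2 had nearly the same score (5.05 each) but 45.2 and 13.6 CPM, so this gene scattered widely at a given score. The slope was 0.57 (adjusted p = 0.000255) without WT 6. The call was lost without dIEC 9 (slope 0.83, adjusted p = 0.135) and without both dIEC 7 and dIEC 9 (slope 0.92, adjusted p = 0.15), a fit added after the values were seen.

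Heph fell with the score, with a slope of -0.35 (SE 0.065, edgeR adjusted p = 0.000594). It went from 847 CPM in dIEC 7 to 435 CPM in dIEC 9, and 481 CPM was reached in both WT 2 and WT 6. The exporter and the oxidase that work together in the villus cell thus moved in opposite directions along the score, and the count ratio of Heph to Slc40a1 ran from 132 in dIEC 7 to 20.6 in dIEC 9 and 10.6 in WT 6. Ftl1 fell as well, with a slope of -0.19 (SE 0.076, edgeR adjusted p = 0.0441), from 160 CPM in dIEC 7 and 204 CPM in WT 10 to 113 CPM in dIEC 9, but its slope was 0.014 with library size only. The Ftl1 call was lost without any 1 of WT 2, 6, 8 and 10 or dIEC 3, 7 and 9 (adjusted p from 0.0531 to 0.404), while the slope stayed between -0.23 and -0.16 in those fits, apart from -0.12 without dIEC 9. Fth1 (slope -0.13, SE 0.084) and Slc11a2 (-0.083, SE 0.058) were not called.

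The level around which slopes are centred depends on how the libraries are scaled. The score was computed anew with each scaling, so its unit also differs and the sizes of slopes are not directly comparable. With library size only, the median slope of all genes moved by 0.18, from -0.0099 to 0.17, and of the genes called 5784 rose and 1308 fell, against 3285 and 3490 with TMM. On that scale Tfrc (0.87) and Slc40a1 (0.83) rose as before, while the slope of Heph was -0.11 (adjusted p = 0.0834), that of Ftl1 0.014, that of Fth1 0.069 and that of Slc11a2 0.11, none called. Relative to the median of all genes, the slope with TMM and with library size only was -0.34 and -0.28 for Heph, -0.18 and -0.15 for Ftl1, -0.12 and -0.10 for Fth1, and -0.073 and -0.059 for Slc11a2, so none of these turned. Mature enterocyte and crypt genes moved along the same score. Of 20 enterocyte markers 16 fell and none rose, and of 12 crypt stem cell markers 10 rose and none fell. The summed enterocyte level ran from 48463 to 94406 CPM in WT and from 38992 to 116325 CPM in dIEC, and its part in the members' slopes was not tested.

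**Figure D3:**
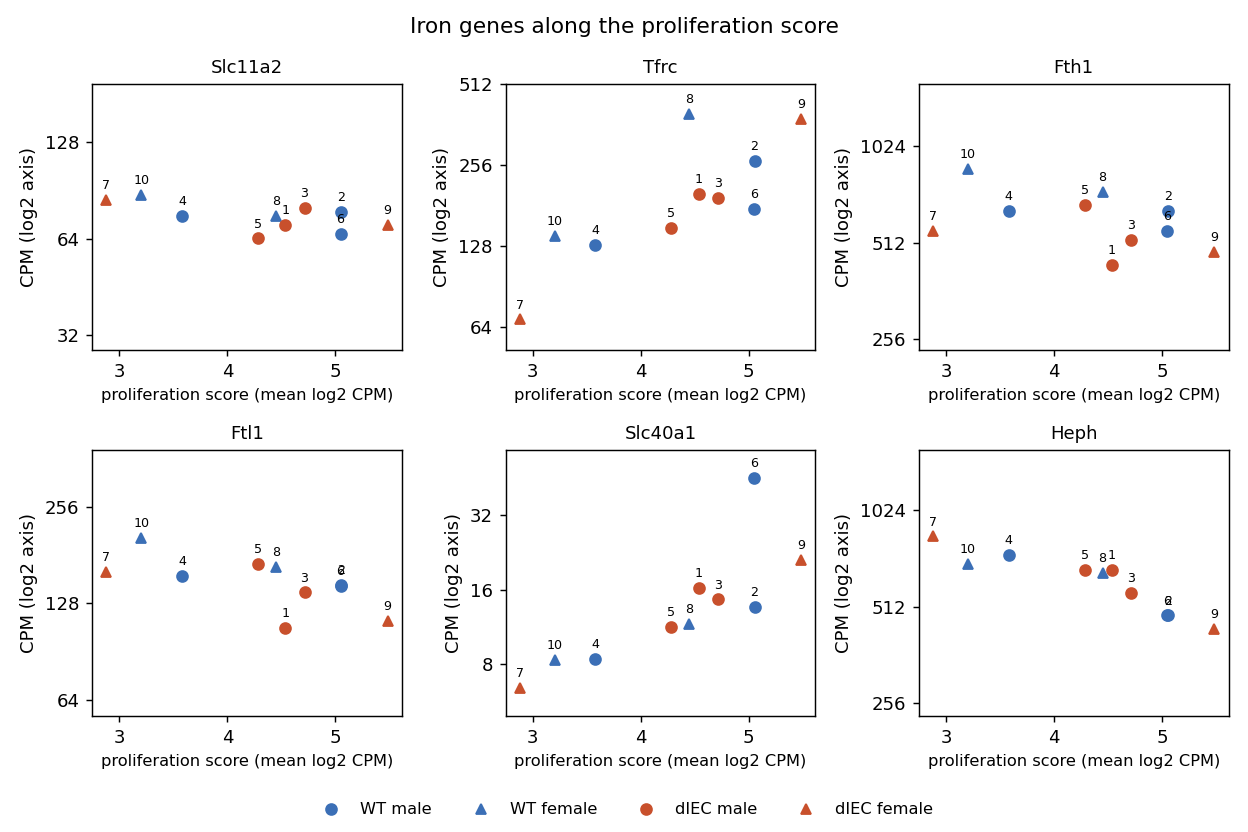
CPM of the 6 listed iron genes (log2 axis) against the proliferation score (mean log2 CPM of 26 proliferation genes) in 10 libraries, with replicate numbers above the points, blue for WT, red for dIEC, circles for males and triangles for females. Tfrc and Slc40a1 climb from dIEC 7 to dIEC 9 with slopes of 0.84 and 0.80, Heph descends with a slope of -0.35, and WT 8 for Tfrc and WT 6 for Slc40a1 lie above the other libraries of like score.

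Other genes of iron metabolism, taken from 7 lists of 86 genes, gave the setting of these values. Of the 86 genes 69 had a row and 65 were tested. Between the genotypes 0 of 65 were called (0.016% of all genes), 4 had an unadjusted p under 0.05 (2.85% of all genes), and DESeq2 results for these lists were not analysed here. The median log2 fold change of the 65 was -0.072, against 0.013 over all genes. The 4 with a low unadjusted p were all in the list of mitochondrial iron and iron-sulphur cluster genes, where 16 of 17 tested members had a fitted value below 0 (median -0.16), against 5913 of all 12477 tested genes, and none was called. They include Bola3, an iron-sulphur cluster assembly factor, at -0.64 (SE 0.21, edgeR unadjusted p = 0.0104). Abcb8, a mitochondrial transporter, was at -0.33 (SE 0.13).

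The genes of the iron regulatory proteins did not pass between the genotypes. For Aco1, whose protein doubles as cytosolic aconitase, the log2 fold change was -0.17 (SE 0.19), and for Ireb2, which encodes the other regulatory protein, it was 0.13 (SE 0.19). Fbxl5, the ubiquitin ligase subunit that removes Ireb2 protein when iron is plentiful, was at 0.13 (SE 0.21). The HIF2 list holds Epas1, the gene of the hypoxia-inducible factor that drives iron absorption genes, together with Hif1a, Hif3a and other genes. Its smallest p values belonged to Vhl (0.18, SE 0.14), Hif1a (-0.24, SE 0.18) and Car9 (-0.35, SE 0.33). The value of Epas1 is not reported here. Of the haem genes, the biliverdin reductase Blvrb was at -0.25 (SE 0.12) and the haem oxygenase Hmox2 at -0.20 (SE 0.10). The haem synthesis genes Alad and Uros were at -0.22 (SE 0.11) and -0.25 (SE 0.19), and Tmem14c, a mitochondrial porphyrin carrier, at -0.43 (SE 0.22). Pcbp1, an iron chaperone that loads ferritin, was at -0.097 (SE 0.12) and Snx3, a sorting nexin of the transferrin receptor cycle, at -0.074 (SE 0.12).

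Along the proliferation score, 37 of the 65 were called, 18 rising and 19 falling, again near the 54.3% of all genes. The counts of each list are given beside 26.3% of all genes rising and 28% falling, and differences between lists were not tested. In the iron sensing list 3 of 5 fell and none rose, with Fbxl5 at -0.35 (SE 0.068, edgeR adjusted p = 0.000766) and Ireb2 at -0.32 (SE 0.063). In the transferrin cycle list 4 of 8 rose and 2 fell. Steap2, a metalloreductase of the family that reduces iron in endosomes, rose by 0.95 per unit (SE 0.099, edgeR adjusted p = 8.56e-06), and the importer Slc39a14 fell, with a slope of -0.35 (SE 0.053). In the HIF2 list 7 of 13 fell, among them Vegfa, the angiogenic growth factor, with a slope of -0.64 (SE 0.087), and 2 rose, Pdk1 (0.61, SE 0.099) and Car9 (0.61, SE 0.10). That list mixes regulators and targets, so its counts do not measure HIF2 activity.

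In the haem transport and breakdown list 3 of 8 fell, among them Lrp1, a large endocytic receptor (-0.65, SE 0.096), and 1 rose, the haem transporter Slc48a1 (0.48, SE 0.10). In the haem synthesis list 2 of 10 rose and 1 fell, Ppox (-0.34, SE 0.067). In the mitochondrial list 8 of 17 rose and 1 fell, among them Lyrm4, of iron-sulphur cluster assembly (0.99, SE 0.17). In the list of iron chaperones and ferritin turnover 2 of 4 fell, with Pcbp2 at -0.28 (SE 0.076). Fundc1, whose place in iron handling was not examined here, rose (0.31, SE 0.095).

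**Figure D4:**
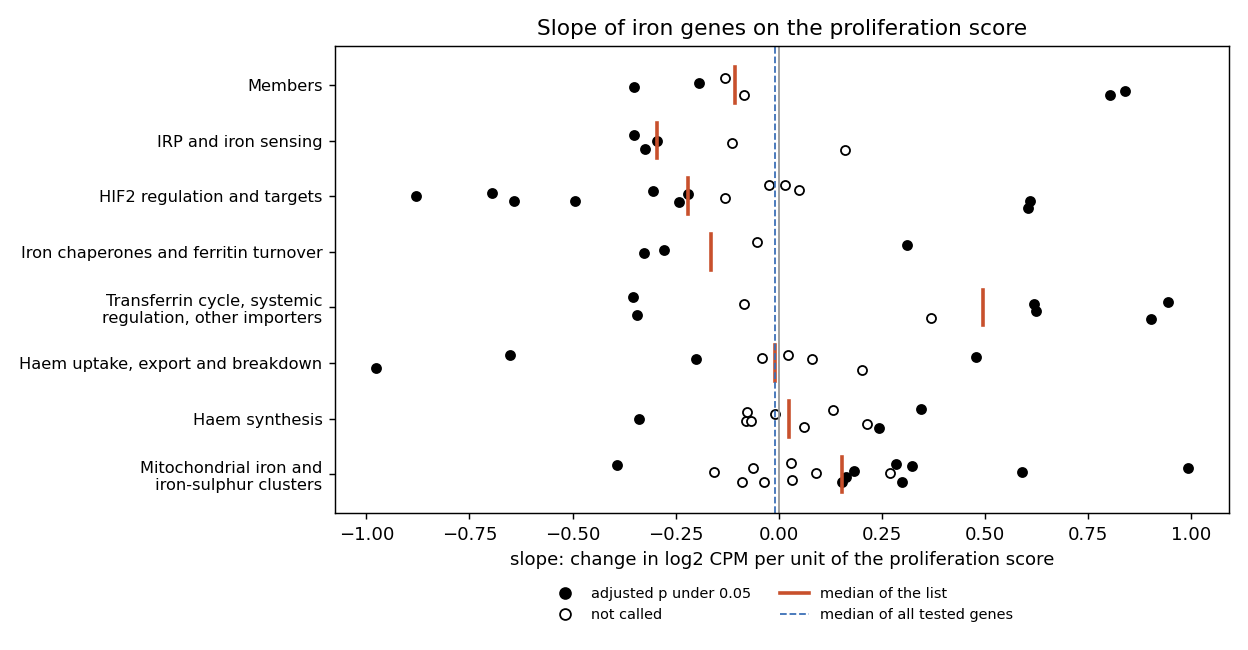
Slope on the proliferation score (change in log2 CPM per unit) of the 6 listed members and of the tested genes of 7 other iron lists. Each point is a gene, filled where edgeR called it, with the list's median as a red bar and the median of all tested genes (-0.0099) as a dashed line; the members split between 0.80 and 0.84 for Slc40a1 and Tfrc and values below 0 for the other 4, of which Slc11a2, Fth1 and Ftl1 lie above 0 but below the all-gene median with library size only.

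The members also differed in the genes whose pattern over the 10 libraries was most like theirs, among 12114 genes with a mean of at least 1 CPM. These likenesses are Pearson correlations of log2 CPM over libraries that share the score axis, and are given as a description. Tfrc was most like Pdk1 (r = 0.992), Snx2 (r = 0.992) and Ugt2b35 (r = 0.988). Heph was most like Afg3l2 (r = 0.991), Ist1 (r = 0.986) and Isoc1 (r = 0.979). Both ferritins had Fabp1, a fatty acid binding protein of proximal enterocytes, among their 3 nearest (r = 0.952 for Fth1, 0.965 for Ftl1), and the nearest were Gstm6 for Fth1 (r = 0.975) and Dhrs1 for Ftl1 (r = 0.982). Fabp1 itself ranged from 304 to 2787 CPM. Slc40a1 was most like Tat (r = 0.930), a gene of low counts that ranged from 0.345 to 18.3 CPM. Slc11a2, which varied least, was most like Crtc1 (r = 0.909). Among the members, the 2 ferritins were the most alike (r = 0.930), and Slc40a1 and Heph the most opposed (r = -0.797).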

How the data were processed

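Raw counts per gene, as deposited by the authors, were used for 10 libraries, 1 per mouse. The submitters' processing notes name Novoalign and the mm10 build. Per the labels' protocols, ribosomal RNA was removed and the kit was stranded. Which counting program, strand setting and annotation were used is not given in the sources used here. Every listed gene reaches 10 counts in at least 1 library, as seen in the values. No 2 libraries of a genotype agreed within sampling noise (chi-square per degree of freedom 16.0 to 152).

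Positions and lengths come from GENCODE M21. edgeR 4.0.16 under R 4.3.3 gave the tests. filterByExpr kept 12477 genes, TMM scaled the libraries, and the quasi-likelihood test with robust estimation was fitted on the whole table. Sex and genotype were in the main models, plus their product or the proliferation score where stated; fits within 1 sex left sex out. A call is a p under 0.05 after Benjamini-Hochberg adjustment over all tested genes. The SE is the size of the log2 value over the square root of F, and log2 CPM used a prior count of 2. Totals of 9174101 to 13484363 set the counting precision, and mice differed by more than counting error. Simulated counts for 12477 genes, 200 of them changed, tested the method. For slopes it recovered 35.5% of genes changed 1.5-fold per unit and 76.1% of those changed 2-fold. The simulated spread came from the model with sex and genotype but without the score. These slope shares therefore need not hold for the real data.

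The members and lists were chosen with earlier results of these data known. Named genes are all members, H2-Ab1 and, from each other iron list, up to 3 with the smallest p for genotype and 2 for the slope; some genes this rule names are not reported here. For likeness, the 3 genes with the highest r per member were taken, and part of them is given. Alternatives were DESeq2 1.42.0, limma 3.58.1 (voom with sample weights), other size factors, filters and covariates, subsets of libraries and leaving out each library.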

Additional observations from a re-analysis of the deposited data

Results flagged for a closer look

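Slc40a1 was at 45.2 CPM in WT 6, and the other 4 WT libraries lay between 8.34 and 13.6 CPM, so this library stood apart from its group. It was the only such case among 74 groups examined (37 named genes in 2 genotypes), where chance gives about 3.70, since about 1 group in 20 is picked out by chance.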

How the results depend on the processing

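No member was called between genotypes in any of 20 alternative fits (lowest adjusted p = 0.228), between the sexes in any of 19 (0.139) or for genotype by sex in any of 16 (0.558). Fth1 and Ftl1 kept a log2 fold change below 0 between genotypes in all 20, from -0.63 to -0.18 and from -0.44 to -0.11. The unadjusted p of Fth1 between genotypes was 0.0244 with DESeq2. In edgeR it was 0.0325 with library size only, 0.0162 with the proliferation score and 0.0163 without dIEC 5. In the other fits it was above 0.05. The number of genes called between genotypes was 2, and 4 with DESeq2, 4 with the proliferation score and 0 in females only (117 at an unadjusted p under 0.05). Between the sexes it was 5, and 13 with DESeq2 and 482 with the score. For genotype by sex it was 1, and 18 with DESeq2, 0 with library size only and 0 with limma voom, and leaving out each library gave 0 to 1. For the slope it was 6775, and 4165 without dIEC 7 and dIEC 9, a fit added after the data were seen.

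Directions turned as follows; the cause was not tested. Between genotypes Slc11a2 was at 0.039 with limma voom, and in females only Slc40a1 was at 0.47 and Heph at -0.067. Leaving out each library gave -0.67 to 0.40 for Slc40a1, -0.074 to 0.21 for Heph and -0.58 to 0.16 for Tfrc. Between the sexes Heph was at -0.07 with the score, Tfrc at -0.54 with limma voom, and within dIEC Heph was at -0.017, Fth1 at -0.10 and Ftl1 at -0.054. Leaving out each library gave -0.034 to 0.32 for Heph and -0.11 to 0.73 for Tfrc. For genotype by sex with library size only, Slc11a2 was at 0.039 and Tfrc at 0.088, and leaving out each library gave -0.18 to 0.086 for Slc11a2, -0.79 to 0.17 for Heph and -1.90 to 0.84 for Tfrc. Slopes with library size only were 0.11 for Slc11a2, 0.069 for Fth1 and 0.014 for Ftl1, where the median of all genes also moved up by 0.18; relative to it none turned. The slope call of Ftl1 was also lost with DESeq2 size factors (adjusted p = 0.0503) and with no covariate (0.0516). Between the sexes Slc40a1 kept its sign but was at -1.30 with limma voom. No paired analysis was run, because the replicate numbers are not shared between genotypes and the labels do not say whether any mice form pairs.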
